A study of Sus scrofa with 18 samples.

Results

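PFKP, GAPDH, PGK1, ENO1, LDHA and LDHB, 6 enzymes of glycolysis and lactate metabolism, were followed in piglet retina. They were taken as every probe set of the array whose only gene symbol in the platform annotation was 1 of these 6 names, which gave 19 of 24123 probe sets. GAPDH had 14 of them, 9 of which are the array's own controls for both ends and the middle of its transcript, and each other gene had 1. The probe set with the highest mean over all arrays stands for its gene. All 6 of these were among the 16799 probe sets tested, and 9 of the 19 were tested in all; of the other 10, 9 are controls and 1 is dim.

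The samples were retinas of male domestic piglets (Landrace crossed with Large White) at postnatal day 38, hybridised to Affymetrix pig arrays. The piglets entered at 3 days of age and were placed at random on a pig milk replacer at its basal level (control, 9 arrays) or on milk replacer with a sialyllactose supplement (9 arrays), where sialyllactose is a milk sugar made of sialic acid and lactose. Milk replacer, breed cross, sex and age were common to both groups. The labels give 1 array per sample and do not say whether each sample came from its own piglet or from 1 or both eyes, so the p-values measure the spread between these samples.

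Glycolysis splits glucose to pyruvate in the cytosol with a small yield of ATP, and lactate dehydrogenase then converts pyruvate to lactate while it restores the NAD+ that glycolysis consumes. The retina is known for turning much of its glucose to lactate even when oxygen is present, chiefly in photoreceptors, and for passing lactate between photoreceptors, Mueller glia and pigment epithelium through monocarboxylate transporters. Lactate dehydrogenase is a tetramer of LDHA and LDHB subunits. A-rich forms are usual in tissues that make lactate, and B-rich forms in tissues that oxidise it.

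The arrays correlated with each other at 0.981 to 0.992 over the tested probe sets, their medians lay between 3.85 and 3.91 (log2), and 0 pairs held identical values. In the labelled tissue the brightest tested markers of rods, cones and Mueller glia read high: the rod arrestin SAG had a mean of 10.61, the cone arrestin ARR3 of 9.63 and the Mueller glia enzyme GLUL of 10.51. The other tested photoreceptor markers read lower, at 3.33 for CNGA1 of rods and at 5.17, 3.61 and 1.65 for OPN1SW, GRK7 and PDE6C of cones. All values are log2 array signals. A signal depends on the probes as well as on the RNA, so the levels of different enzymes are not ranked against each other. In a piece of whole tissue, fewer cells of a type and less RNA per cell cannot be told apart.

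The diets were compared first. None of the 6 enzymes passed an adjusted p under 0.05 by limma with Benjamini-Hochberg adjustment over all tested probe sets. Over the whole array 0 of 16799 probe sets passed, 0%, while 1059 had an unadjusted p under 0.05; an exact permutation of each probe set likewise gave 0 after adjustment and 1113 before it. The 2 enzymes with the clearest differences, ENO1 and PFKP, were both lower with sialyllactose by about 0.2 on the log2 scale. GAPDH, LDHA, LDHB and PGK1 differed by 0.05 or less in either direction. At an unadjusted p under 0.05, 2 of 6 enzymes were lower and 0 were higher, where 3.36% of all tested probe sets were lower and 2.94% higher. That count fell from 2 to 1 after quantile normalization, with the replicate number as a block, and without control replicate 3 or 9 or sialyllactose replicate 2, 3 or 6. The median difference over the 6 was -0.04 (5 lower, 1 higher), beside -0.01 over all tested probe sets, of which 8969 were lower and 7830 higher.

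**Figure D1:**
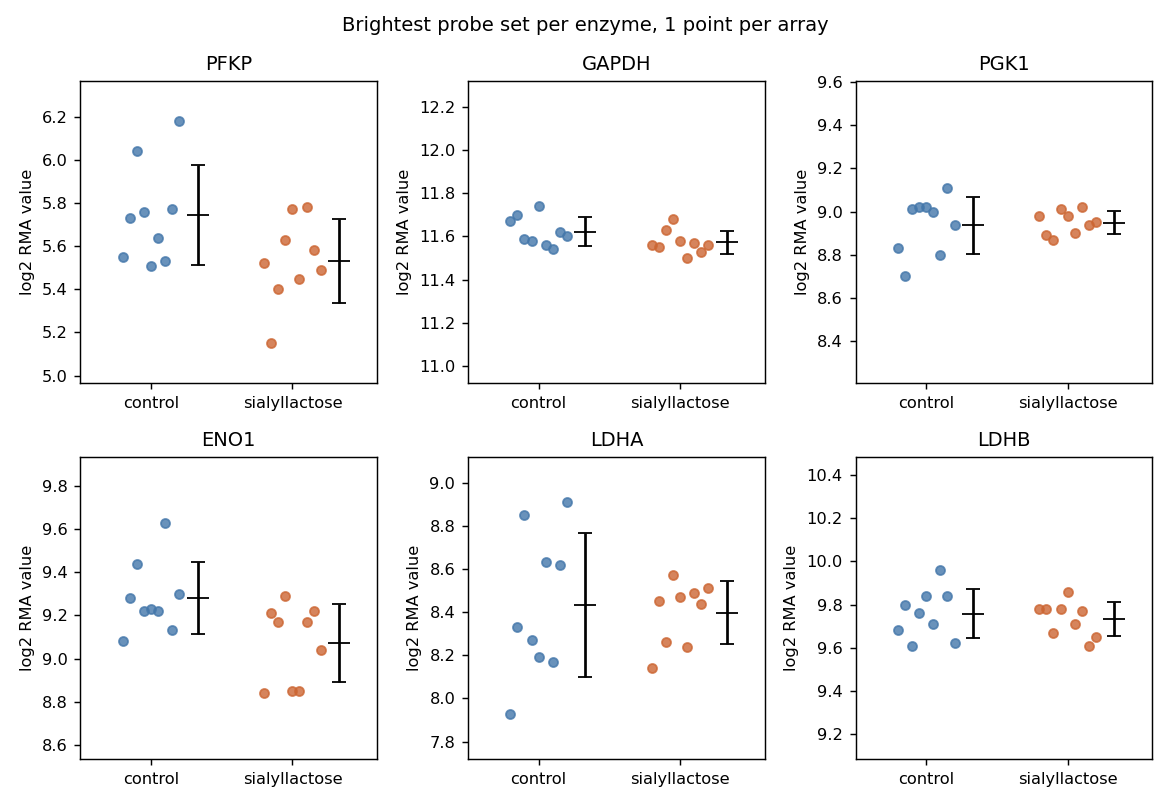
Log2 array value (vertical axes, each spanning the same 1.4 log2 units) of each enzyme's brightest probe set, 1 point per array, for control and sialyllactose (n = 9 each). Black bars are the mean and SD; the groups overlap in all 6 enzymes, and LDHA in control spans 7.93 to 8.91.

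PFKP, the platelet type of phosphofructokinase, belongs to the enzyme family that catalyses the committed step of glycolysis. Its control arrays read 5.51, 5.53, 5.55, 5.64, 5.73, 5.76, 5.77, 6.04 and 6.18. Its sialyllactose arrays read 5.15, 5.40, 5.45, 5.49, 5.52, 5.58, 5.63, 5.77 and 5.78. The groups overlapped between 5.51 and 5.78; control replicates 3 and 9 stood above every sialyllactose array, and sialyllactose replicates 2, 3, 6 and 9 stood below every control array. The means were 5.75 ± 0.23 and 5.53 ± 0.19 (SD, n = 9 each), a difference of -0.22 with a 95% interval from -0.41 to -0.02, or 0.861 of the control level (0.752 to 0.986). Its adjusted p by limma was 0.773 and its unadjusted p 0.0324; an exact two-sided permutation over 48620 label assignments gave 0.0463, and 7 of 9 sialyllactose arrays lay below the control median. Leaving out 1 array at a time moved the difference between -0.25 and -0.16, and without control replicate 9 it was -0.16.

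GAPDH oxidises glyceraldehyde 3-phosphate and forms the NADH that lactate dehydrogenase later uses. Its control arrays lay between 11.54 and 11.74 with a median of 11.60, and its sialyllactose arrays between 11.50 and 11.68 with a median of 11.56. The whole set spanned 1.18-fold from lowest to highest, the narrowest of the 6 enzymes. The means were 11.62 ± 0.07 and 11.57 ± 0.05, a difference of -0.05 (95% interval -0.14 to 0.04; limma adjusted p = 0.88; exact permutation p = 0.101).

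PGK1 follows GAPDH and makes the first ATP of the pathway. Its control arrays lay between 8.70 and 9.11 with a median of 9.00, and its sialyllactose arrays between 8.87 and 9.02 with a median of 8.95. The sialyllactose arrays thus fell inside the control range, with an SD of 0.05 against 0.13 in control; this difference in spread was not tested. The means were 8.94 and 8.95, and the difference of 0.01 had a 95% interval from -0.10 to 0.12 (limma adjusted p = 0.988).

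ENO1, the widely expressed enolase, makes phosphoenolpyruvate. Its control arrays read 9.08, 9.13, 9.22, 9.22, 9.23, 9.28, 9.30, 9.44 and 9.63. Its sialyllactose arrays read 8.84, 8.85, 8.85, 9.04, 9.17, 9.17, 9.21, 9.22 and 9.29. Sialyllactose replicates 1, 5 and 6 formed a low group with replicate 9 next, all 4 below every control array, while control replicates 3, 7 and 9 stood above every sialyllactose array. The means were 9.28 ± 0.16 and 9.07 ± 0.18, a difference of -0.21 with a 95% interval from -0.37 to -0.04, or 0.867 of the control level (0.774 to 0.971). Its adjusted p by limma was 0.753 and its unadjusted p 0.0159; the exact permutation gave 0.0222, and 8 of 9 sialyllactose arrays lay below the control median. Its difference kept its sign without any 1 array (-0.23 to -0.16).

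LDHA encodes the A subunit of lactate dehydrogenase. Its control arrays read 7.93, 8.17, 8.19, 8.27, 8.33, 8.62, 8.63, 8.85 and 8.91. Its sialyllactose arrays read 8.14, 8.24, 8.26, 8.44, 8.45, 8.47, 8.49, 8.51 and 8.57. Control retinas ranged widely on both sides of the sialyllactose arrays, with SDs of 0.33 and 0.15; this difference in spread was not tested. The means were 8.43 and 8.40, and the difference of -0.04 had a 95% interval from -0.27 to 0.20 (limma adjusted p = 0.977), the widest interval of the 6.

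LDHB encodes the B subunit. Its control arrays lay between 9.61 and 9.96 with a median of 9.76, and its sialyllactose arrays between 9.61 and 9.86 with a median of 9.77. The means were 9.76 ± 0.11 and 9.73 ± 0.08, a difference of -0.03 (95% interval -0.13 to 0.08; limma adjusted p = 0.961). The RefSeq gene table holds 2 records of this symbol, and the platform's identifier matches 1 of them.

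The LDHA value minus the LDHB value was taken within each array, which shows whether the subunits moved unequally and not how much of each there was. In control it lay between -1.79 and -0.71 with a median of -1.47, and with sialyllactose between -1.64 and -1.14 with a median of -1.34. The control range contained the sialyllactose range. The means were -1.33 ± 0.41 and -1.34 ± 0.16, a difference of -0.01 (95% interval -0.32 to 0.30; exact permutation p = 0.939).

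The other genes of the pathway showed no call either. Of 23 other glycolysis genes listed, 13 were tested, with 5 higher and 8 lower with sialyllactose, 0 past the adjusted threshold and a median difference of -0.01. Of 23 other genes for lactate, pyruvate and glucose handling, 14 were tested, with 8 higher, 6 lower, 0 past the threshold and a median of 0.02. HK3, a hexokinase known from blood cells, read 3.57 ± 0.14 in control and 3.71 ± 0.13 with sialyllactose, a difference of 0.14 (limma adjusted p = 0.779). The isozymes beside the 2 lower enzymes gave smaller values: PFKL differed by -0.14 and PFKM by 0.02, and the neuronal enolase ENO2 by 0.05. HK1, GPI, ALDOC, TPI1 and PKM, which act at other steps of glycolysis, and the glucose transporter SLC2A1 differed by between -0.07 and 0.04. Of the genes around pyruvate entry to mitochondria, DLAT differed by 0.09, MPC2 by 0.05, PDHA1 by -0.10, PDHB by -0.03, PDK3 by -0.11 and PDK4 by -0.20, with unadjusted p of 0.151 or more by limma in each. In the hypoxia response list 13 genes were tested, 4 higher and 9 lower, with a median of -0.01. The 15 tested citrate cycle genes had 2 higher and 13 lower, with a median of -0.04, and the 5 of the pentose phosphate route 2 higher and 3 lower, with a median of -0.03. None of these lists held a gene past the adjusted threshold. Of all 5710 tested named genes, 3238 were lower and 2472 higher with sialyllactose.

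**Figure D2:**
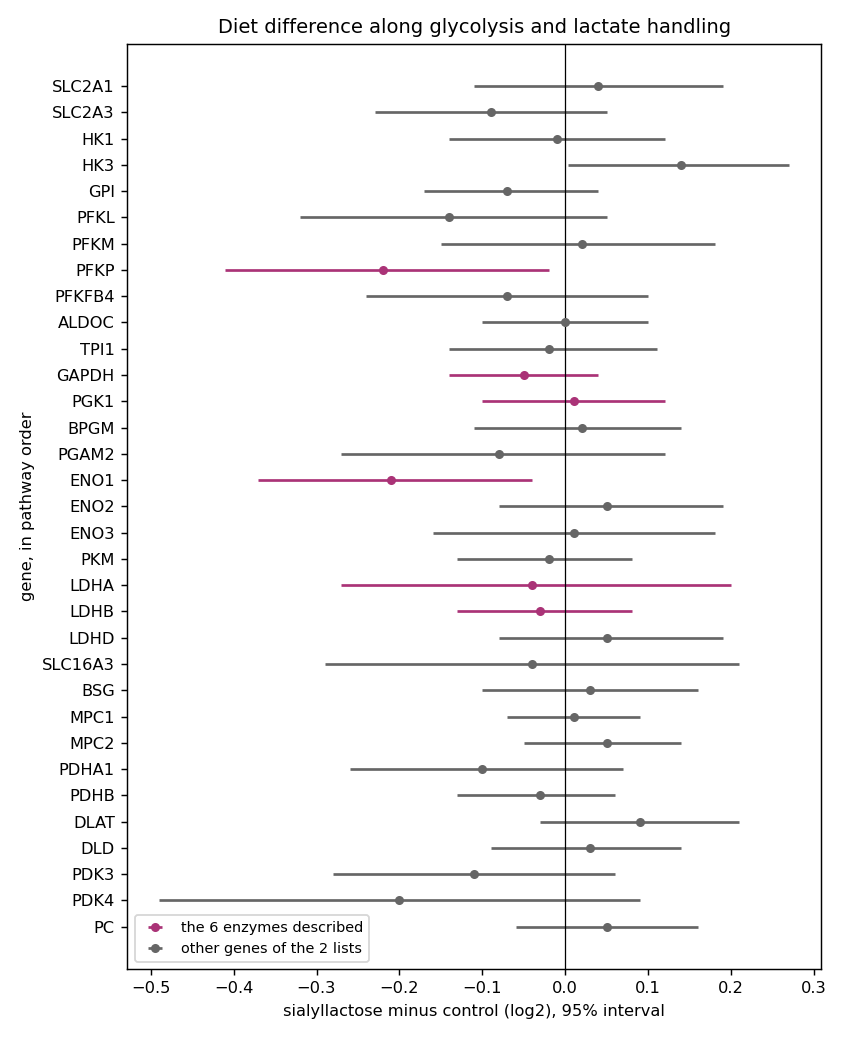
Sialyllactose minus control (log2, horizontal axis) with its 95% interval for the 33 tested genes of the glycolysis and lactate lists, ordered from glucose entry to mitochondrial pyruvate use. The intervals of PFKP and ENO1, both lower, and of HK3, higher, leave out 0 before adjustment; those of the other 30 genes include it.

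With diet means removed, the enzymes differed in how far the retinas spread. The SD pooled over both diets was 0.26 for LDHA, 0.21 for PFKP, 0.17 for ENO1, 0.10 for LDHB, 0.10 for PGK1 and 0.06 for GAPDH, beside a median of 0.16 over all tested probe sets. The first place of LDHA came from the control arrays, where its SD was 0.33. With sialyllactose it was 0.15, below PFKP (0.19) and ENO1 (0.18). Among probe sets whose mean lay within 0.5 log2 units, LDHA had a larger SD than 96.9% of 288, PFKP than 91.3% of 2355 and ENO1 than 91.3% of 126. LDHB and PGK1 stood nearer the middle, at 61.9% of 63 and 56.8% of 155. GAPDH stood at 0.0% of only 9 probe sets, with its mean at the 99.9th percentile of the tested signals. From the lowest to the highest array, PFKP spanned 2.04-fold, LDHA 1.97-fold, ENO1 1.72-fold, PGK1 1.33-fold and LDHB 1.28-fold.

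Levels of the enzymes were for the most part weakly correlated between retinas. Over the 15 pairs, the median Pearson r across the 18 arrays was 0.12, with 9 pairs positive and 6 negative, beside a median of 0.01 over all pairs of tested named genes, whose 5th and 95th percentiles were -0.43 and 0.45. The median was -0.03 once the diet means were removed, -0.19 in control arrays alone and 0.30 in sialyllactose arrays alone; the difference between diets was not tested. GAPDH correlated with the other 5 enzymes at between -0.14 and 0.19. LDHA and LDHB, the subunits of 1 enzyme, gave r = -0.36 (permutation p = 0.14; rho = -0.29, permutation p = 0.245), with -0.53 in control and 0.10 with sialyllactose. LDHA and PGK1 gave r = 0.44 over all arrays (permutation p = 0.0711; adjusted over the 15 pairs 0.534; rho = 0.41, permutation p = 0.0956), 0.44 in control and 0.45 with sialyllactose.

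**Figure D3:**
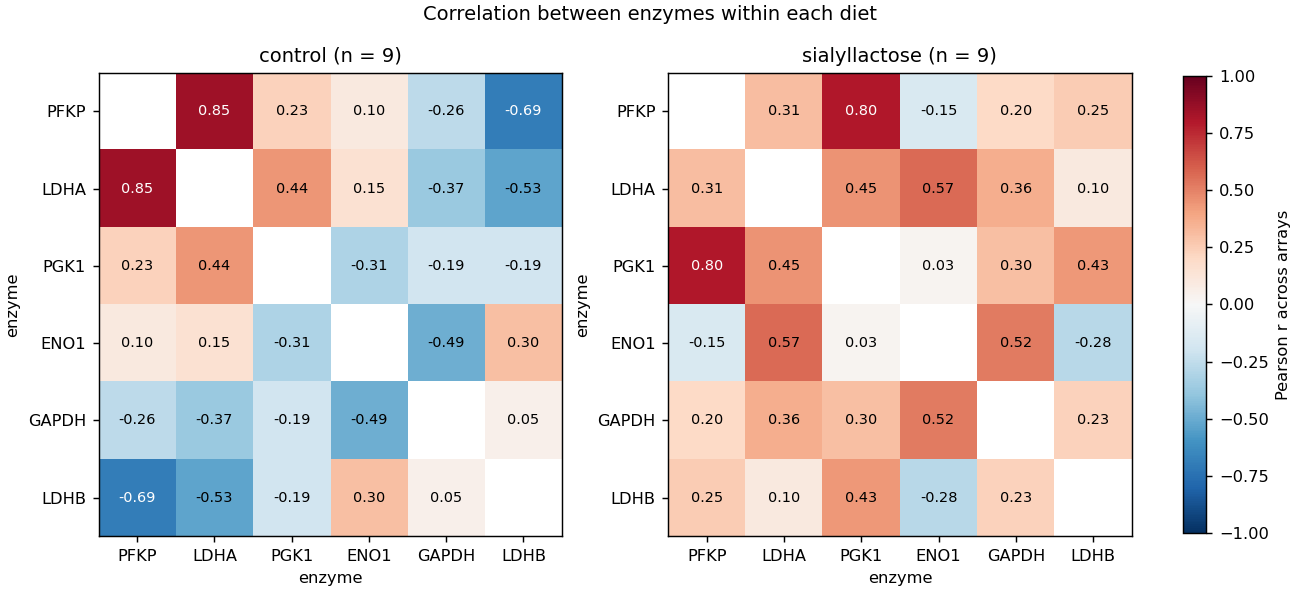
Pearson r between each pair of enzymes across the 9 control arrays (left) and the 9 sialyllactose arrays (right); colour runs from -1 (blue) to 1 (red). PFKP with LDHA reads 0.85 in control and 0.31 with sialyllactose, and PFKP with PGK1 reads 0.23 and 0.80; differences between the panels were not tested.

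PFKP and LDHA formed the only pair of the 15 with a permutation p under 0.05. Their r was 0.63 (permutation p = 0.00566, adjusted 0.0849) and their rho 0.61 (permutation p = 0.00894, adjusted 0.134), so the pair did not pass after adjustment over the 15 pairs. Without control replicate 9 and sialyllactose replicate 2, the arrays farthest from the PFKP median, r was 0.66. It was 0.85 in control arrays and 0.31 in sialyllactose arrays, and with diet means removed it was 0.68 (adjusted permutation p = 0.0277). That permutation shuffled arrays across both diets and took no account of the removed means, so its p may be too small. Control replicates 3 and 9 were highest in both genes, at 8.85 and 8.91 for LDHA and 6.04 and 6.18 for PFKP. Without both, a choice made after the values were seen, r was 0.27 (permutation p = 0.31) and rho 0.44 (permutation p = 0.0916). It was 0.55 without control replicate 3 alone and 0.49 without control replicate 9 alone. Leaving out the arrays highest in both genes narrows both ranges and so tends to lower r. The drop therefore does not settle how far the relation rested on those 2 arrays.

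The 6 enzymes were then set against 60 other tested genes of glycolysis, lactate handling, the hypoxia response, the pentose phosphate route and the citrate cycle, 360 correlations in all. At an unadjusted permutation p under 0.05 there were 38. The share of all gene pairs that reach this p was not computed, so the 38 are not read as a result about these genes. Over all pairs of tested named genes, the 5th and 95th percentiles of r were -0.43 and 0.45. After adjustment over the 360, 3 passed. Of these 3, 2 linked LDHA and PFKP to the same gene, SLC16A3, which encodes the monocarboxylate transporter MCT4, known for exporting lactate from glycolytic cells. The other linked LDHB to SDHB, the iron-sulfur subunit of succinate dehydrogenase in the citrate cycle and respiratory chain.

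SLC16A3 read 2.35, 2.67, 2.86, 2.32, 2.17, 2.61, 2.32, 2.86 and 3.17 in control replicates 1 to 9, and 2.35, 2.20, 2.41, 2.76, 2.78, 2.46, 2.72, 2.54 and 2.76 in sialyllactose replicates 1 to 9. Control replicate 9, the array with the highest LDHA and PFKP, was also highest here, and sialyllactose replicate 2, lowest in PFKP, was second lowest. The correlation with LDHA was r = 0.81 (permutation p = 6e-05, adjusted 0.0216) with rho = 0.80 (adjusted permutation p = 0.0216). It was 0.88 in control and 0.65 with sialyllactose, 0.74 without the 2 arrays farthest from the SLC16A3 median, and 0.70 without control replicates 3 and 9, where it no longer passed (adjusted permutation p = 0.192). It was 0.75 without control replicate 9 alone (adjusted permutation p = 0.09).

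The correlation of SLC16A3 with PFKP was r = 0.78 (permutation p = 0.00013, adjusted 0.0234), with rho = 0.69 (permutation p = 0.00184, adjusted 0.0946). It was 0.88 in control and 0.81 with sialyllactose, 0.70 without the 2 arrays farthest from the SLC16A3 median and 0.62 without control replicates 3 and 9. The call was lost without control replicate 3, control replicate 9 or sialyllactose replicate 2 (adjusted permutation p = 0.0774, 0.138 and 0.0684). SLC16A3 is a dim probe set, at the 26.7th percentile of the tested signals with a mean of 2.57, so its values lie close to the lower end of the array's range. Its diet means were 2.59 ± 0.33 and 2.55 ± 0.21, a difference of -0.04 (95% interval -0.29 to 0.21; limma adjusted p = 0.977).

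**Figure D4:**
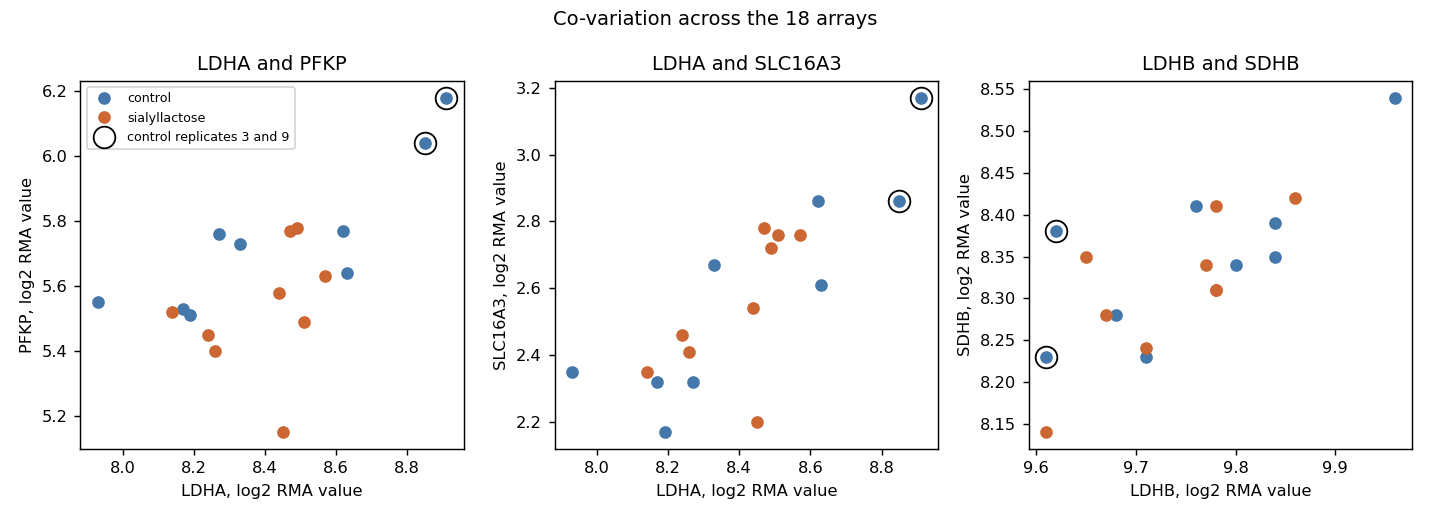
Log2 values of PFKP and SLC16A3 against LDHA, and of SDHB against LDHB, 1 point per array in each panel (18 arrays, coloured by diet). Black rings mark control replicates 3 and 9, which lie at the top right in both LDHA panels and at the low end of LDHB.

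GPI followed both LDHA and PFKP in rank, and TPI1 followed PFKP; both act before GAPDH in glycolysis. GPI, which converts glucose 6-phosphate to fructose 6-phosphate just before phosphofructokinase, lay at 9.25 to 9.51 in control arrays and 9.13 to 9.47 in sialyllactose arrays. Its correlation with LDHA was r = 0.71 (permutation p = 0.00092, adjusted 0.0828) and rho = 0.78 (adjusted permutation p = 0.0225), with r of 0.75 in control, 0.94 with sialyllactose and 0.62 without the 2 arrays farthest from the GPI median. With PFKP it was r = 0.64 (adjusted permutation p = 0.165) and rho = 0.78 (adjusted permutation p = 0.0225). TPI1, which interconverts the triose phosphates, gave r = 0.58 with PFKP (adjusted permutation p = 0.271) and rho = 0.80 (adjusted permutation p = 0.0216), and with LDHA r = 0.52 (adjusted permutation p = 0.357) and rho = 0.59 (adjusted permutation p = 0.257). GPI with both genes and TPI1 with PFKP thus passed by rank and not by Pearson's r. Control replicates 3 and 9 were also the highest arrays in GPI, at 9.51 each, and without them r was 0.54 for GPI with LDHA, 0.42 for GPI with PFKP and 0.49 for TPI1 with PFKP.

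For LDHB, the relation that passed was with SDHB. SDHB lay at 8.23 to 8.54 in control arrays and 8.14 to 8.42 in sialyllactose arrays, and its correlation with LDHB was r = 0.75 (permutation p = 0.00038, adjusted 0.0456), with rho = 0.65 (permutation p = 0.00457, adjusted 0.165). The value was 0.74 in control and 0.76 with sialyllactose, but 0.54 without the 2 arrays farthest from the SDHB median, control replicate 7 and sialyllactose replicate 8. It was 0.40 when the arrays were quantile normalized again, and 0.38 with the tested probe sets of each gene averaged. The call was lost in 14 of 18 fits that left out 1 array, with r from 0.63 to 0.84. PKM, the pyruvate kinase that makes the substrate of lactate dehydrogenase, gave r = 0.69 with LDHB (adjusted permutation p = 0.116) and rho = 0.76 (adjusted permutation p = 0.0317). IDH3B, a subunit of the citrate cycle's isocitrate dehydrogenase, gave r = 0.61 (adjusted permutation p = 0.186) and rho = 0.73 (adjusted permutation p = 0.045). With LDHA, the same genes gave r of -0.11 for SDHB, -0.24 for PKM and -0.27 for IDH3B; that LDHA and LDHB differ in these relations was not tested. SDHB and IDH3B were singled out after their values were seen.

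The genes most like each enzyme were taken from 5704 tested named genes by Pearson r over the 18 arrays with diet means removed, as a description. SLC16A3 came first for both PFKP (r = 0.85) and LDHA (r = 0.81). CLK2 (0.76), a kinase of splicing factors, and ZNF568 (0.71) came next for PFKP, and CDC42EP2 and FAM210B (both 0.79) for LDHA. COPS4 (0.83), RPL21 (0.80) and ABHD10 (0.80) led for LDHB, with a subunit of the COP9 signalosome first and a ribosomal protein gene next. ZCCHC8 (0.87), the kinesin KIF21A (0.86) and PPM1B (0.84) led for PGK1, PSMG3 (0.80), the ephrin EFNB2 (0.78) and PLA2G16 (0.76) for ENO1, and the mitochondrial iron carrier SLC25A37 (0.80), MFSD1 and TRDMT1 (both 0.76) for GAPDH. For the mean deviation of the 6 enzymes, to which the widely spread LDHA and PFKP contribute most, SLC16A3 (0.76) again came first, which restates its likeness to those 2; its r over all arrays was -0.01 with GAPDH and 0.05 with ENO1. HNRNPL (0.76), CDC42EP2 and GPI (both 0.75), PSORS1C2 (0.70), BUD23 and PRSS16 (both 0.69) and SHROOM2 (0.68) followed, and PMS1 (-0.82), PON2 (-0.78), GEMIN8 and HERPUD2 (both -0.75) ran most opposite. That mean deviation was highest in control replicates 3 and 9 (both 0.17) and lowest in sialyllactose replicate 6 (-0.15).

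GAPDH, often used as a reference gene, could be read at 14 probe sets. All 12 with a mean over 5 were lower with sialyllactose, by between -0.10 and -0.01, and the 2 dim ones, with means of 1.57 and 1.23, were higher by 0.04 and 0.02. No interval of the 14 left out 0; the control sets were fitted with all probe sets of the array, and the probe sets share 1 transcript, so they are not independent. Across arrays they did not report 1 common pattern. The brightest set correlated at 0.88, 0.54 and 0.50 with the 3 sets at the 3 prime end, at 0.41, 0.16 and -0.32 with the 3 sets of the middle, and at 0.16, -0.23 and 0.19 with the 3 sets at the 5 prime end.

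**Figure D5:**
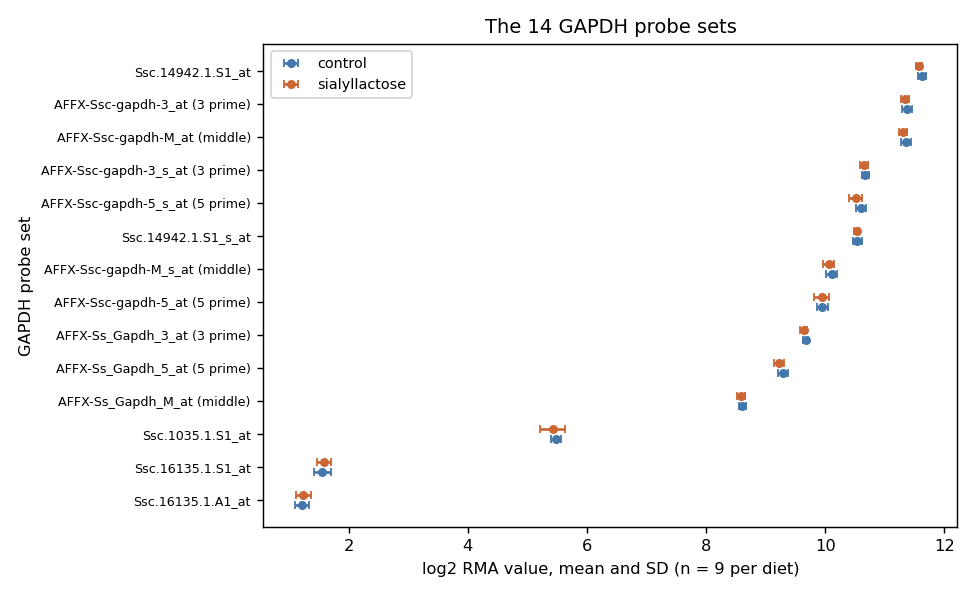
Mean and SD of the log2 value (horizontal axis) of the 14 GAPDH probe sets in control and sialyllactose arrays (n = 9 each), ordered by mean, with the part of the transcript where the array names it. The diet means lie within 0.10 of each other at every probe set.

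The difference between the 3 prime and 5 prime GAPDH controls, a gauge of how complete the labelled RNA was, lay at 1.28 to 1.68 in control arrays and 1.25 to 1.74 in sialyllactose arrays. Its means differed by -0.02 (exact permutation p = 0.765). It correlated with the brightest GAPDH set at r = 0.62 (permutation p = 0.00696, rho = 0.66, permutation p = 0.00364), and the median signal of the array did so at r = 0.61 (permutation p = 0.0072, rho = 0.63, permutation p = 0.00638). The gauge holds GAPDH probe sets itself, 1 of which correlated at 0.88 with the brightest set, so part of its r is built in. The same gauge from actin, which shares no probe set with GAPDH, gave r = 0.14 (permutation p = 0.585) and rho = 0.38 (permutation p = 0.123). This actin gauge was larger, at 2.87 to 3.68 in control arrays and up to 3.80 in sialyllactose arrays. Control replicate 9 had the highest control value, 3.68, with 3.32 next, and control replicate 3 read 3.07. Over all arrays the actin gauge gave r = 0.12 with PFKP and -0.06 with LDHA. These were 0.57 and 0.18 in control arrays, and -0.05 and -0.53 in sialyllactose arrays. Neither the GAPDH gauge nor the array median passed after adjustment over the 66 correlations of 11 such gauges with the 6 enzymes (both 0.238). Of the 66, 6 had an unadjusted permutation p under 0.05 and 0 passed. The share of all tested genes that reach this p with these gauges was not computed. The 6 are therefore not read as a result about these enzymes. The array median was lower with sialyllactose by 0.02 (3.88 and 3.87; exact permutation p = 0.032). The part of RNA integrity in the values of GAPDH, LDHA and PFKP was not tested.

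Markers of other cell types were read beside the enzymes as each list's mean deviation per array. Mueller glia markers were lower with sialyllactose in 7 of 8 tested genes, with list deviations between -0.17 and 0.25 in control arrays and between -0.29 and 0.12 in sialyllactose arrays, a difference of -0.14 (exact permutation p = 0.0464). Endothelium and pericyte markers were lower in 6 of 6, between -0.19 and 0.27 in control arrays and between -0.28 and 0.10 in sialyllactose arrays, a difference of -0.18 (exact permutation p = 0.0186). Beside these counts, 3238 of all 5710 tested named genes were lower. The 2 exact permutation p-values were not adjusted over the 11 gauges. The astrocyte list held 2 tested genes, both lower with sialyllactose: GFAP read 5.69 ± 0.38 and 5.28 ± 0.23, a difference of -0.41 (unadjusted p = 0.00577, adjusted p = 0.691 by limma), and S100B 8.02 ± 0.35 and 7.84 ± 0.41, a difference of -0.18 (adjusted p = 0.888 by limma). PGK1 correlated with the Mueller glia markers at r = -0.54 (permutation p = 0.0194; rho = -0.49, permutation p = 0.0395), with the cone markers at r = -0.53 (permutation p = 0.0223; rho = -0.48, permutation p = 0.0475) and with the ganglion cell markers at r = 0.51 (permutation p = 0.0303; rho = 0.64, permutation p = 0.00547). ENO1 correlated with the hypoxia response list at r = 0.53 (permutation p = 0.0227; rho = 0.43, permutation p = 0.0768). None of these list correlations passed after adjustment (0.3 to 0.333). Single genes of a list differed. Of the ganglion cell markers, NEFL and RBPMS gave r of 0.56 and 0.55 with PGK1, and THY1 gave -0.19. Of the Mueller glia markers, RLBP1 gave -0.72, GLUL -0.55, and CLU and APOE -0.52 each. VIM gave -0.15, SLC1A3 -0.14, CD9 0.04 and DKK3 0.09. The part of cell make-up in the enzyme values was not tested.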

How the data were processed

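The deposited table holds 1 log2 value per probe set and array, made by the authors with Affymetrix Expression Console and RMA per the submitters' processing notes; their settings and the array's genome build are not given in the sources used here. RMA places all arrays on 1 distribution, which hides any shift common to the bulk of genes, and it shrinks differences of dim probe sets. Groups and replicate numbers came from the titles. No litter, batch or scan date is named in the labels. The number of arrays limits the precision.

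From these values 124 control probe sets and the dimmest 30% of the rest (7200) were left out. Diets were compared in 1 limma fit (version 3.58.1, R 4.3.3) of the other 16799 probe sets over 18 arrays, without covariates, with Benjamini-Hochberg adjustment and a threshold of 0.05. Correlations had two-sided permutation p-values from 100000 resamples (numpy 2.4.6). The limma fit, the exact permutation and the adjustment were tested on simulated data, and the permutation p-values of correlations were not. The limma check required recovery only of planted changes larger than the differences described here.

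The 6 enzymes and all gene lists were chosen with earlier results of these data known. Genes beyond the 6 were named as isozymes or partners of a member, as the 3 per direction with the smallest unadjusted p in the glycolysis and lactate lists, or as the 3 genes most like each member (8 and 4 for the mean of all 6). SDHB and IDH3B fell under none of these rules and were named for their correlation with LDHB, after it was seen. Cell type markers came from the marker lists. A search of promoter sequences was planned and not run, and no sequences were used here.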

Additional observations from a re-analysis of the deposited data

How the results depend on the processing

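In each alternative run, 0 of 6 enzymes passed the adjusted threshold by limma, also at 0.1, by exact permutation of all tested probe sets (lowest adjusted p = 0.631; 2 enzymes with an unadjusted p under 0.05) and with the replicate block, which gave 0 and a median difference of -0.04. Same-numbered arrays deviated together at -0.113 to 0.164. Differently numbered arrays were not compared in this way, so these values do not settle whether the numbers mark a pairing. With the block 1 enzyme, not 2, had an unadjusted p under 0.05; it changed no adjusted call. ENO1 and PFKP kept their sign throughout. Small differences did not: LDHB read 0.002 after quantile normalization, PGK1 -0.01 with array weights, and leaving out 1 array gave -0.10 to 0.02 for LDHA, -0.02 to 0.03 for PGK1 and -0.07 to 0.07 for LDHA minus LDHB. The median difference stayed between -0.07 and -0.03.

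The median r over 15 pairs was -0.03 with diet means removed, -0.19 in control, 0.30 with sialyllactose, and 0.05 to 0.18 leaving out 1 array. Permutation p-values with diet means removed took no account of the removed means and may be too small. LDHA with PFKP passed with diet means removed (0.68), after quantile normalization (0.67) and in control arrays (0.85), and ran from 0.49 without control replicate 9 to 0.76 without sialyllactose replicate 2. SLC16A3 with LDHA missed the threshold in control (0.88) and sialyllactose (0.65) arrays alone and without control replicates 3 and 9 (0.70), and ran from 0.75 to 0.88 leaving out 1 array. SLC16A3 with PFKP missed it by rank (0.69), in either diet alone (0.88 and 0.81) and without those 2 arrays (0.62), and ran from 0.68 to 0.84. SDHB with LDHB missed it by rank (0.65), with diet means removed (0.74), after quantile normalization (0.40), in either diet alone (0.74 and 0.76) and with gene means (0.38), and ran from 0.63 to 0.84. Either diet alone holds 9 arrays; the cause of the other changes was not tested. The correlations of single pairs were added to the alternatives after the data were seen. Of 360 correlations, 3 passed as reported, 6 by rank, 2 with diet means removed, 4 with arrays centred, 0 within either diet and 1 to 3 leaving out 1 array.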
